A study of Anser cygnoides with 11 samples.

Results

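Messenger RNA abundance was described in the kidneys of healthy goslings of the swan goose (Anser cygnoides). The libraries were chosen by their group label, control, which covers 6 of the 11 goslings of the series. Each of the 6 libraries, called control 1 to control 6 here, came from renal tissue of a gosling labelled healthy. The other 5 goslings had visceral gout, a deposition of urate on internal organs, and their libraries were not used. The labels give no drug, diet, allele or strain for the healthy goslings, and neither sex, age nor batch. The labels also carry a treatment protocol on dissolved oxygen for animals kept in tanks and call the input adipose; neither describes gosling kidneys, and neither was used. The goslings are labelled as separate animals, so the spread reported below includes differences between animals, between pieces of tissue and between library preparations, which cannot be told apart.

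The bird kidney carries reptilian-type nephrons without a loop of Henle beside mammalian-type nephrons with one. Birds excrete nitrogen mainly as urate, which proximal tubule cells secrete into the urine. Their erythrocytes and thrombocytes keep a nucleus and carry messenger RNA, and heterophils take the place of the neutrophils of mammals. The roles given below for marker genes are known mostly from mammals and chicken.

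Values are FPKM, mapped fragments in proportion to transcript length and library total, as deposited by the authors. The table held 19275 rows, of which 12231 carried a gene symbol, 5957 a LOC number (a locus without a symbol) and 1087 no name. A mean of at least 1 FPKM was reached by 12445 rows, 10674 of them reached 1 FPKM in every library, and 446 rows were listed at 0 in all of them. Between 11847 and 12569 rows reached 1 FPKM in a library, and column totals ranged from 306484 to 390546 FPKM. Read counts are not part of the table, so the depth of each library is unknown and values carry no counting interval. FPKM is a share of the library, so more of one abundant transcript means lower values elsewhere. In whole tissue, fewer cells of a type and less RNA per cell cannot be told apart.

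A small number of rows supplied much of the measured RNA. A share of 19.9% ± 1.44 of FPKM (SD, n = 6) belonged to the 10 most abundant rows, and the 100 most abundant held 43.2% ± 3.11. Rows without a name took 19.8% ± 3.72, and 9 of the 20 most abundant rows had none. The most abundant row of all, the unnamed MSTRG.5561, held 7.55% ± 1.97 of FPKM, with 15112 FPKM in control 4, a median of 25869 and 37190 in control 2. No gene name, description or role is given for it in the table. Among the named rows, FTH1, the iron-storing heavy chain of ferritin, was the most abundant, at 9148 FPKM in control 6, a median of 10628 and 13880 in control 5. FTH1 had an SD of 0.23 on the log2(FPKM + 1) scale, which is used for every SD of a row below, and an SD of 0.39 after quantile normalization.

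**Figure D1:**
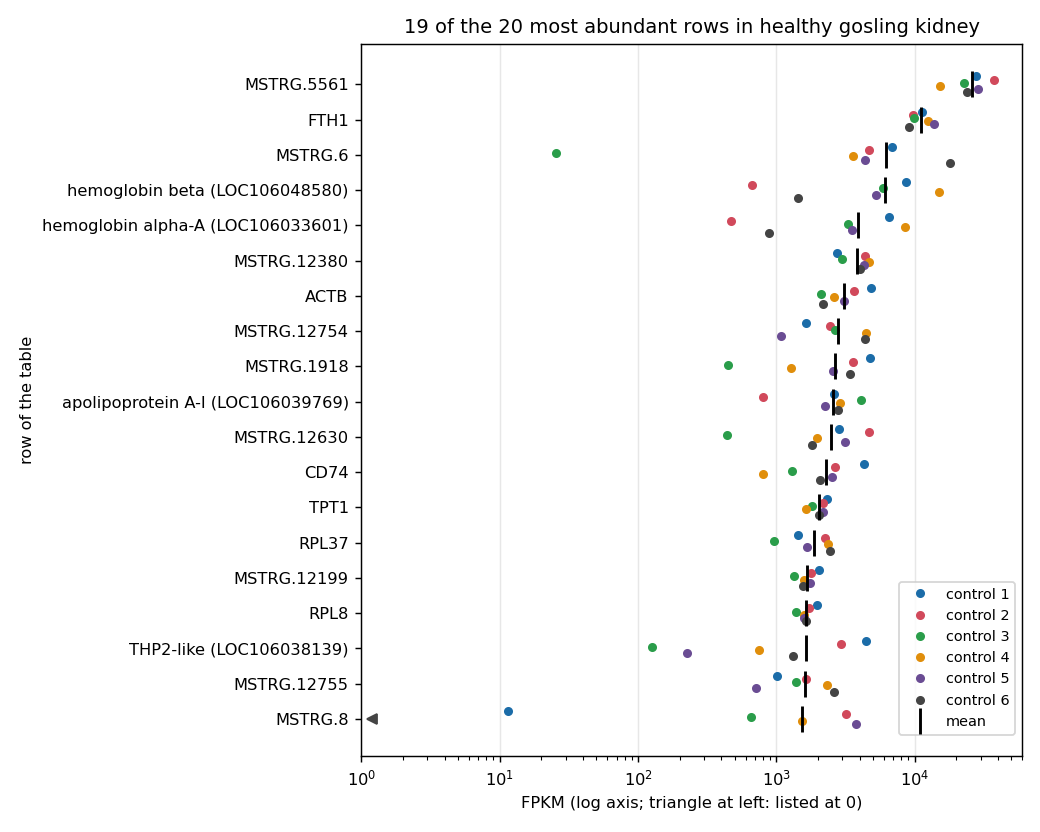
FPKM of 19 of the 20 most abundant rows (log axis) in each of the 6 control libraries, ordered by mean; coloured points are libraries, black bars are means, and a triangle marks a value listed at 0. FTH1, TPT1 and RPL8 stay close together in all libraries, while MSTRG.6 reaches down to 25.7 FPKM in control 3 and MSTRG.8 is listed at 0 in control 6.

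Structural and translation genes made up much of the rest of the top rows. ACTB, cytoplasmic actin, had 2107 FPKM in control 3, a median of 2864 and 4851 in control 1. TPT1, a translationally controlled protein, lay between 1643 and 2324 FPKM. Of the 100 most abundant rows, 42 encoded ribosomal proteins, and the 63 rows with a ribosomal protein symbol together took 12.3% ± 1.0 of FPKM. Their spread was small: the 62 that reached 1 FPKM had a median SD of 0.22, against 0.32 over all 12445 rows. Of the 62, 1 had an SD of 1 or more, against 3.86% of the 12445 rows. RPL8 was between 1395 and 1962 FPKM. Of these 62 rows, 38 had their lowest value in control 3, which held the lowest value of 19.5% of all rows. The highest value was in control 1 for 25 and in control 4 for 21 of the 62, against 24.4% and 7.32% of all rows.

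Blood and plasma proteins were also near the top. The hemoglobin beta row (LOC106048580) ranked 4th and the hemoglobin alpha-A row (LOC106033601) ranked 5th by mean. Hemoglobin beta had 665 FPKM in control 2, a median of 5548 and 14880 in control 4, and hemoglobin alpha-A had 473 in control 2, a median of 3426 and 8452 in control 4. The 7 hemoglobin rows took 0.382% of FPKM in control 2 and 8.09% in control 4, so the share of this one family moved by several percent of the library. Apolipoprotein A-I (LOC106039769), the main protein of high-density lipoprotein, which birds make in many tissues, had 806 FPKM in control 2, a median of 2681 and 4097 in control 3. CD74, the invariant chain that guides class II histocompatibility molecules in antigen-presenting cells, ranked 12th, with 800 FPKM in control 4, a median of 2296 and 4322 in control 1. An antimicrobial peptide row of the heterophil granule (THP2-like, LOC106038139) ranked 18th on the strength of a few libraries, with 126 FPKM in control 3, a median of 1034 and 4457 in control 1.

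To see which parts of the organ the libraries represent, 31 lists of marker and pathway genes were looked up. They held 493 symbols, of which 326 had a row under that symbol and 284 reached a mean of 1 FPKM. A symbol without a row is not counted as absent, since bird genes are often listed under a LOC number. Through the symbols now paired with LOC numbers in RefSeq and through joint names, rows were found for 40 further symbols, and 318 then reached 1 FPKM.

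**Figure D2:**
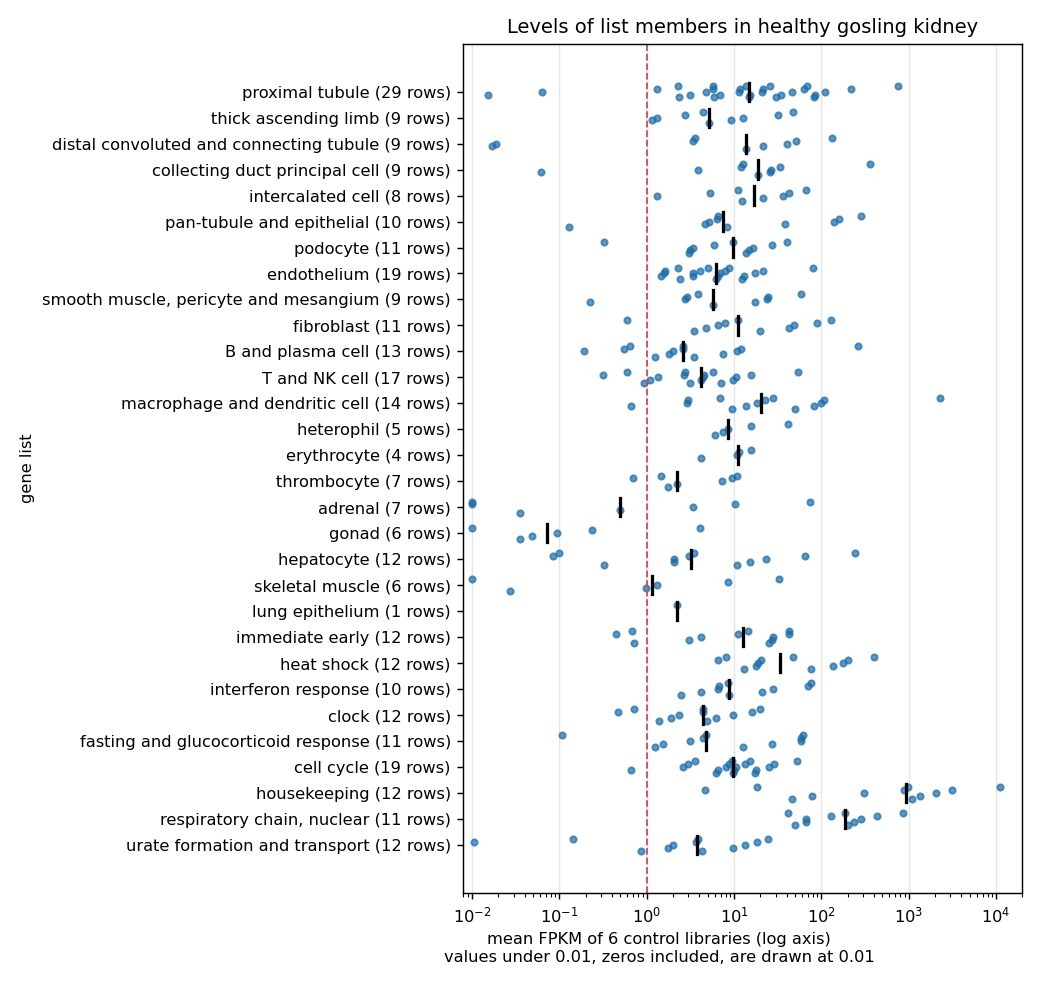
Mean FPKM over the 6 control libraries (log axis) of every list member with a row; each point is a gene, the black bar is the median of the list and the dashed red line marks 1 FPKM. All 9 thick ascending limb, all 8 intercalated cell and all 19 endothelial rows lie above the line, while 5 of 6 gonad rows and 4 of 7 adrenal rows lie below it.

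Proximal tubule genes, which serve reabsorption, gluconeogenesis and organic ion secretion, had the highest summed level of the nephron segment lists and were also the longest of them. Of 29 with a row, 27 reached 1 FPKM, and the median member had 14.8 FPKM. PCK1, the cytosolic enzyme that commits carbon to gluconeogenesis, had 80.1 FPKM in control 2, a median of 135 and 571 in control 3. DPYS, a pyrimidine-degrading enzyme, had 42.2 FPKM in control 2, a median of 105 and 178 in control 3. In both genes control 3 was highest and control 2 lowest. PDZK1, a scaffold for brush border transporters, repeated that order with 25.4 and 186 FPKM at the extremes. The transcription factor HNF4A, a regulator of proximal tubule identity, averaged 26.0 ± 7.64 FPKM (SD, n = 6) and ran from 18.9 in control 1 to 40.8 in control 3.

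Some genes that define the mammalian proximal tubule were low. SLC34A1, the main renal phosphate transporter of mammals, had a median of 1.10 FPKM and a single high value of 8.55 in control 4. SLC9A3, the apical sodium-proton exchanger, averaged 0.0638 FPKM and was listed at 0 in control 2. LRP2, the endocytic receptor megalin, averaged 6.86 ± 5.23 FPKM and reached 16.4 in control 3. Organic ion transporters of the SLC22 family were grouped by their descriptions after the values had been seen, and 15 rows reached 1 FPKM. The leading one, described as similar to SLC22A6 (LOC106049807), the anion exchanger that takes up urate and drugs from blood, had 57.7 FPKM in control 2 and 586 in control 3. Its neighbour in rank within the family, a row of LOC106049801, also SLC22A6-like, had 6.03 FPKM in control 2 and 205 in control 3. A second row of LOC106049801 had no description and so was not among the 15. It was also lowest in control 2, at 5.05 FPKM, but highest in control 4, at 124, with 88.7 in control 3. SLC22A7, another organic anion carrier, lay between 24.4 FPKM in control 2 and 85.4 in control 3.

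Thick ascending limb genes were all present and at modest levels, with a median member at 5.10 FPKM. CLDN10, a tight junction claudin of paracellular sodium transport, had 30.7 FPKM in control 1, a median of 48.5 and 64.3 in control 3. SLC12A1, the sodium-potassium-chloride cotransporter that loop diuretics block, had 15.9 FPKM in control 4, a median of 30.5 and 54.0 in control 5. CLDN19, which works with CLDN16 in magnesium reabsorption, lay between 5.80 and 11.3 FPKM, and CLDN16 itself averaged 1.14 FPKM. Of the 9 members, none had an SD of 1 or more, against 3.86% of all rows at a mean of 1 FPKM. At that share, a list this short could hold none without differing from other rows.

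In the distal convoluted and connecting tubule list, 7 of 9 rows reached 1 FPKM. FXYD2, the gamma subunit of the sodium pump, had 69.1 FPKM in control 5, a median of 137 and 174 in control 4. CALB1, the calcium-buffering protein of the connecting tubule, was steadier, with 41.2 FPKM in control 4, a median of 49.0 and 69.5 in control 6. SLC12A3, the thiazide-sensitive sodium-chloride cotransporter, had 15.3 FPKM in control 2, a median of 18.4 and 34.8 in control 6. EGF and PVALB, markers of the distal convoluted tubule in mammals, were close to 0, at 0.0188 and 0.0169 FPKM.

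Of 9 rows of the principal cells of the collecting duct, 8 reached 1 FPKM, and the median member had 19.0 FPKM. HSD11B2, the enzyme that inactivates glucocorticoids and so keeps the mineralocorticoid receptor selective, ranked 119th of all rows, with 261 FPKM in control 2, a median of 372 and 433 in control 1. The sodium channel subunit SCNN1A had 18.4 FPKM in control 4, a median of 25.9 and 33.2 in control 2, and SCNN1G and SCNN1B averaged 19.0 and 12.8 FPKM. AQP2, the vasopressin-regulated water channel, was low beside them, between 1.54 and 6.21 FPKM. Of the 8 principal cell members at 1 FPKM, 7 had their lowest value in control 4, the gosling that held the lowest value of 26.0% of all rows.

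Intercalated cells, which secrete acid or base, were represented by 8 members, all above 1 FPKM. RHCG, an ammonia channel, had 46.2 FPKM in control 2, a median of 60.9 and 96.3 in control 3. ATP6V1B1, the kidney form of a proton pump subunit, had 26.0 FPKM in control 4, a median of 41.4 and 63.2 in control 1. SLC26A4, the pendrin chloride-bicarbonate exchanger of base-secreting cells, lay between 6.71 and 17.4 FPKM, and the RefSeq symbol SLC4A1, which marks acid-secreting cells and also erythrocytes, led to a band 3-like row (LOC106045951) with 30.6 ± 5.81 FPKM (SD, n = 6). Among genes shared along the tubule, PAX2, a transcription factor of the nephric lineage, was steady at 8.31 ± 0.73 FPKM.

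The glomerulus was represented by 11 podocyte rows, of which 10 reached 1 FPKM. WT1, a podocyte transcription factor, lay between 5.59 and 12.0 FPKM, and PODXL, the podocyte surface sialomucin, between 10.2 and 18.0. TCF21, a transcription factor of podocytes and stromal cells, stood apart in 1 library: it had 1.11 FPKM in control 2, against 33.4 to 88.1 FPKM in the other 5 goslings, while CD2AP, an adaptor of the slit diaphragm, had 10.2 FPKM in control 2 and 11.2 to 22.7 in the others. The mean log2(FPKM + 1) of the podocyte list, which includes TCF21, was 2.93 in control 2, against 3.33 to 3.52 in the other goslings. Of the 10 members at 1 FPKM, only 2, TCF21 and CD2AP, were lowest in control 2, which held the lowest value of 17.8% of all rows. Endothelial genes numbered 19 and all reached 1 FPKM. EHD3, which in mammals marks glomerular endothelium, led with 64.7 FPKM in control 4, a median of 80.7 and 96.7 in control 1, and EGFL7, a secreted vascular factor, was steady at 21.6 ± 1.97 FPKM.

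Contractile and matrix genes varied more between goslings. ACTA2, smooth muscle actin, had 25.4 FPKM in control 3, a median of 50.0 and 99.9 in control 5. MYH11, smooth muscle myosin, had 4.10 FPKM in control 2, a median of 16.4 and 75.5 in control 5. Control 5 held the highest value of 6 of the 8 smooth muscle members at 1 FPKM and of 7 of the 10 fibroblast members, and it held the highest value of 27.2% of all rows. COL1A2, a chain of type I collagen, lay between 76.8 and 184 FPKM, and LUM, the matrix proteoglycan lumican, between 0.360 in control 2 and 12.7 in control 5.

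Leukocyte genes were readily detected in healthy kidney. In the macrophage and dendritic cell list 13 of 14 rows reached 1 FPKM, and 9 of these 13 were highest in control 1, which held the highest value of 24.4% of all rows. MPEG1, a pore-forming protein of macrophages, had 53.2 FPKM in control 3, a median of 97.1 and 238 in control 1. The class II alpha chain row (LOC106049922) had 799 FPKM in control 3 and 2916 in control 1. T cell genes had the same gosling on top: 12 of 14 members at 1 FPKM were highest in control 1. CD3D, a chain of the T cell receptor complex, had 37.2 FPKM in control 3, a median of 49.1 and 86.8 in control 1.

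Antibody-producing cells had another distribution. JCHAIN, which joins polymeric antibodies, had 76.6 FPKM in control 3, a median of 236 and 523 in control 5. The immunoglobulin mu row (LOC106049915) had 60.1 FPKM in control 3, against 453 to 2033 FPKM in the other goslings. A less abundant row, described as Ig heavy chain Mem5-like (LOC106045966), had another order. It was lowest in control 2 at 2.96 FPKM, with 10.2 in control 3 and 24.1 in control 5. MZB1, a chaperone of antibody secretion, had 2.21 FPKM in control 3, a median of 10.6 and 27.4 in control 2. Of 10 B and plasma cell members at 1 FPKM, 8 were lowest in control 3, against 19.5% of all rows. PAX5, the B cell lineage factor, averaged 0.652 FPKM.

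Heterophil products varied widely between goslings. CSF3R, the receptor for granulocyte growth factor, had 5.14 FPKM in control 3, a median of 10.1 and 47.9 in control 1. MPO, a granule peroxidase in mammals that is listed here between 0.555 FPKM in control 5 and 17.6 in control 2, had an SD of 1.58. Myeloid protein 1 (LOC106032697), an abundant granule protein of bird myeloid cells, had 141 FPKM in control 3, a median of 1031 and 3945 in control 1. Together with the THP2-like, MRP-126 and gallinacin-4-like rows, 4 granule and myeloid rows chosen by description after the values had been seen summed to 505 FPKM in control 3, a median of 2986 and 10770 in control 1. Thrombocyte genes were lower, with ITGB3, a fibrinogen receptor chain, between 3.54 FPKM in control 3 and 17.3 in control 1.

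Erythrocyte genes did not all follow hemoglobin. The 5 hemoglobin rows at 1 FPKM summed to 1321 FPKM in control 2, a median of 10105 and 26375 in control 4. Each of the 5 had an SD of 1 or more, against 3.86% of all rows at a mean of 1 FPKM. HEMGN, a nuclear protein of the erythroid lineage, had 0.563 FPKM in control 6, a median of 3.65 and 8.09 in control 4. TFRC, the transferrin receptor, which other dividing cells also use, had 6.75 FPKM in control 6 and 37.0 in control 1. RHAG, an erythrocyte ammonia channel, lay between 5.70 FPKM in control 2 and 16.3 in control 3. TAL1, a transcription factor of blood cell precursors, had 5.88 FPKM in control 6, a median of 9.62 and 16.6 in control 1. Control 6, low in hemoglobin, was thus the lowest for HEMGN, TFRC and TAL1. Control 4, the highest for hemoglobin, was the highest only for HEMGN among these 4 genes. SPTB (LOC106048257), an erythrocyte spectrin chain found through its RefSeq symbol, had the same extremes as hemoglobin, with 1.34 FPKM in control 2 and 7.92 in control 4.

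**Figure D3:**
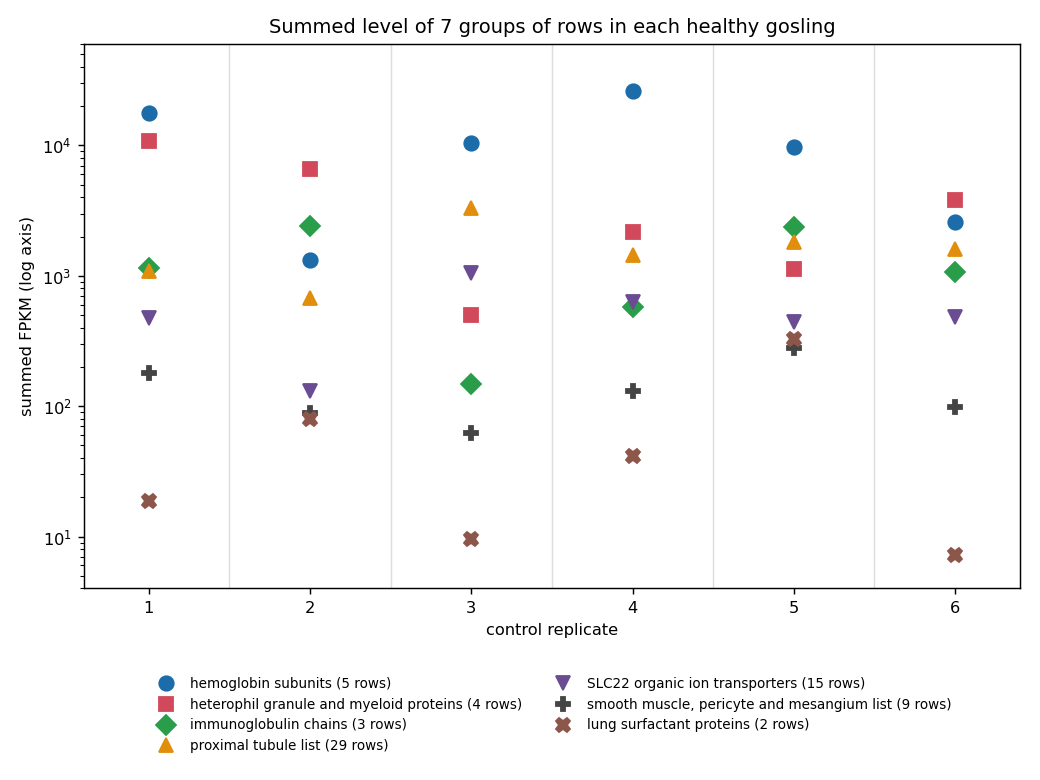
Summed FPKM (log axis) of 7 groups of rows in each of the 6 control libraries; each symbol is the sum over the rows named in the legend. Hemoglobin is lowest in control 2, the heterophil granule and immunoglobulin groups are lowest in control 3, the proximal tubule and SLC22 groups are highest there, and the surfactant group is highest in control 5 at 326 FPKM.

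Tissues that lie beside the kidney were checked with further lists. Bird kidneys lie against the adrenals, gonads, lungs and muscle of the back. Adrenal genes were mostly near 0: the corticotropin receptor MC2R was listed at 0 in all 6 libraries, NR5A1, the steroidogenic regulator, averaged 0.00868 FPKM and TH, which starts catecholamine synthesis, 0.0357. STAR, a cholesterol carrier of steroidogenic cells, averaged 10.4 ± 2.74 FPKM. CHGB, a secretory granule protein, averaged 74.0 ± 33.3 FPKM, and CHGA, its relative, lay between 0.698 FPKM in control 2 and 9.12 in control 1. Gonad genes were low, with AMH at 0.237 and DDX4, a germ cell helicase, at 0.0047 FPKM, and SOX9, which the developing kidney also uses, at 4.11 FPKM.

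Liver and muscle markers gave a mixed picture. ALB, the albumin of hepatocytes, averaged 0.328 FPKM and AHSG 0.0841, whereas TF, an iron-binding plasma protein that birds also make in other tissues, had 25.5 FPKM in control 3, a median of 169 and 783 in control 5. VTN, the adhesive plasma protein vitronectin, was between 37.2 and 87.3 FPKM. HPX, the heme carrier hemopexin, had 0.407 FPKM in control 3, a median of 6.77 and 59.2 in control 5. Of the skeletal muscle list, TNNT3 was listed at 0 in all libraries and MB, myoglobin, averaged 0.027 FPKM, while ACTA1, sarcomeric actin, had 6.15 FPKM in control 3, a median of 16.7 and 85.3 in control 5.

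Lung markers were highest in 1 gosling, and the other goslings were not all alike. NKX2-1, a transcription factor of lung and thyroid, had 10.2 FPKM in control 5, at most 1.47 in the others, and was listed at 0 in control 3 and control 6. A surfactant protein A-like row (LOC106032443) had 1.40 FPKM in control 6, a median of 20.1 and 262 in control 5, and a second one (LOC106032431) lay between 5.03 FPKM in control 3 and 63.4 in control 5. The more abundant row of AQP1, a water channel of vessels as well as of the mammalian proximal tubule, had 74.3 FPKM in control 5 and at most 16.0 in the others. Control 5 was also the library with the highest MYH11, ACTA1, TF and HPX, but other members of the liver and muscle lists peaked elsewhere. Of 9 hepatocyte members at 1 FPKM, 5 were highest in control 3 and 3 in control 5, against 16.2% and 27.2% of all rows. Of 3 skeletal muscle members, 1 each was highest in control 1, control 3 and control 5. Whether adjoining tissue had a part in the values of control 5 was not tested.

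Genes of urate formation and transport were at moderate levels. XDH, the dehydrogenase that makes urate, had 6.81 FPKM in control 2, a median of 12.4 and 22.9 in control 3. ATIC, which completes purine synthesis, had 21.0 FPKM in control 4, a median of 22.4 and 34.0 in control 1. PAICS, an earlier enzyme of the same pathway, varied little, at 9.70 ± 1.13 FPKM (SD, n = 6). HPRT1, which salvages purine bases, had 6.93 FPKM in control 6 against 17.5 to 25.5 in the other goslings, and PPAT, the first enzyme of purine synthesis, had 0.584 in control 5 against 4.50 to 5.48. Of the transporters, SLC2A9, a urate carrier, averaged 3.91 ± 1.67 FPKM, while ABCC4 and ABCG2, urate exporters, averaged 0.861 and 0.142 FPKM. The purine phosphorylase PNP was listed at 0 in all libraries but control 1, where it had 0.0636 FPKM.

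Genes that respond to handling, feeding and time of day were described because they can differ between healthy animals. The early response gene FOS had 3.31 FPKM in control 6, a median of 7.33 and 32.0 in control 2, and DUSP1, a phosphatase induced with it, had 15.6 and 58.8 FPKM in the same goslings. Of 9 early response members at 1 FPKM, 6 were highest in control 2, which held the highest value of 12.6% of all rows. The glucose-releasing enzyme G6PC had 7.99 FPKM in control 2, a median of 22.2 and 69.3 in control 3. FKBP5, a co-chaperone induced by glucocorticoids, lay between 25.4 FPKM in control 3 and 90.4 in control 2. The clock gene PER2 had 3.19 FPKM in control 1, a median of 5.14 and 11.8 in control 6, and CRY2, another clock gene, was steadier at 15.9 ± 2.66 FPKM.

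Heat shock, interferon and proliferation genes were present in every library. HSPA8, a constitutive chaperone, had 240 FPKM in control 3, a median of 380 and 664 in control 1. HSPB1, a small heat shock protein of muscle and stressed cells, varied more, with 2.26 FPKM in control 2, a median of 16.2 and 42.4 in control 5. IRF1, an interferon-induced transcription factor, lay between 39.3 FPKM in control 6 and 150.5 in control 1, and RSAD2, an antiviral enzyme, between 0.929 in control 3 and 8.61 in control 5. PCNA, the replication clamp, had 40.0 FPKM in control 6 and 61.6 in control 1. CDK1, the mitotic kinase, had 16.1 FPKM in control 6, a median of 28.3 and 41.6 in control 2. Of 18 cell cycle members at 1 FPKM, 13 were lowest in control 6, the gosling with the lowest value of 14.9% of all rows. The highest value was in control 1 for 8 and in control 2 for 7 of the 18, against 24.4% and 12.6% of all rows.

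**Figure D4:**
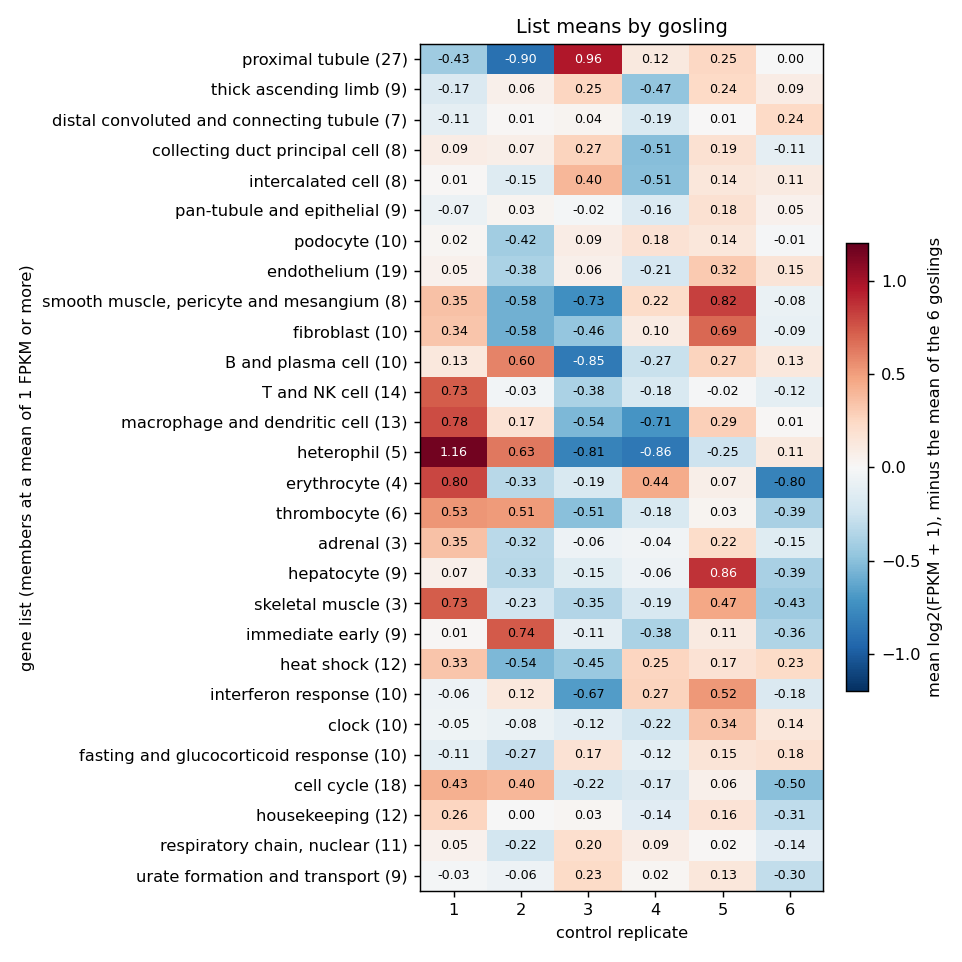
Mean log2(FPKM + 1) over the members at a mean of 1 FPKM or more (number in parentheses) of each list with at least 3 such members, by control replicate, after subtracting the mean of the 6 goslings; red is above and blue below that mean. The proximal tubule list runs from -0.90 in control 2 to 0.96 in control 3 and the heterophil list from -0.86 in control 4 to 1.16 in control 1, while the pan-tubule list stays within 0.18 of its mean.

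Spread among the healthy goslings was then taken over all rows. The median SD of log2(FPKM + 1) was 0.32, and the middle of the distribution, from the 10th to the 90th percentile, ran from 0.17 to 0.70. An SD of 1 or more, which for well-expressed rows means that goslings typically lay 2-fold above or below the average, was found in 480 of 12445 rows, or 3.86%, and an SD of 2 or more in 42. The share was 3.33% of rows with a mean of 1 to 10 FPKM, 4.19% of rows from 10 to 100 and 11.4% of the 377 rows above. Adding 1 before the logarithm shrinks the spread of low rows, so these shares are not directly comparable between levels. With 0.1 added in its place, 934 rows had an SD of 1 or more. Among list members, 20 of 284 reached an SD of 1, or 7.04%, and their median SD was 0.49. The lists hold many blood, stroma and proximal tubule genes and were drawn up with earlier results of these data known, so this difference in share is a description of the chosen genes.

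**Figure D5:**
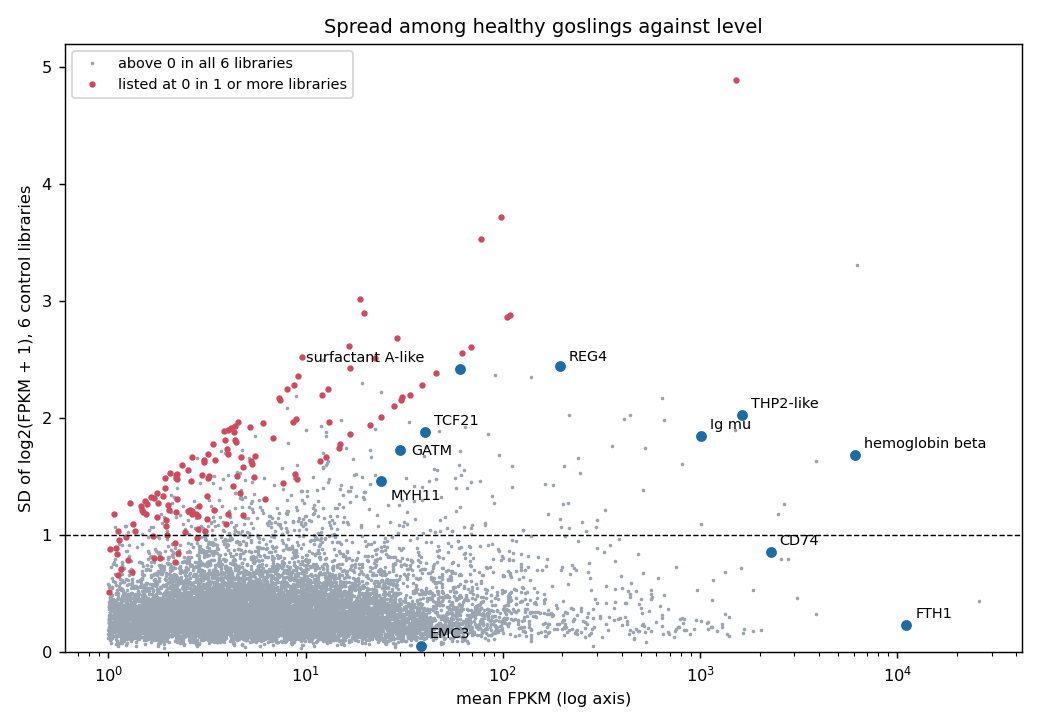
SD of log2(FPKM + 1) over the 6 control libraries against mean FPKM (log axis) for the 12445 rows with a mean of 1 FPKM or more; grey points are rows above 0 in every library, red points are rows listed at 0 in at least 1, and blue points are named rows. The dashed line marks an SD of 1, which 480 rows reach, and the red points make up much of the upper left edge.

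The variable members are given here by segment, beside a share of 3.86% over all rows. The proximal tubule held 4 of 27 with an SD of 1 or more: GATM, PCK1, SLC6A19 and AQP1. GATM, the first enzyme of creatine synthesis, had 2.0 FPKM in control 2, a median of 21.7 and 94.6 in control 3, and SLC6A19, the neutral amino acid carrier of the brush border, had 15.8 FPKM in control 2, a median of 47.0 and 168 in control 3. The calls depended on single goslings: without control 3 the SD of PCK1 was 0.69 and that of SLC6A19 was 0.74, without control 2 SLC6A19 had 0.81, and without control 5 AQP1 had 0.48, while GATM kept at least 1.28. Leaving out control 2 or control 3 gave 3 proximal tubule members with an SD of 1 or more, and leaving out control 1 gave 8. The thick ascending limb, distal tubule, principal cell, intercalated cell and pan-tubule lists held none. They had 9, 7, 8, 8 and 9 members listed under their symbol, and also held none when any single gosling was left out. With a share of 3.86% over all rows, lists this short could hold none without differing from other rows. Of the rows found through RefSeq symbols, CDH1 (LOC106046592;LOC106046593), the epithelial adhesion protein E-cadherin of the pan-tubule list, had an SD of 1.26, with 2.93 FPKM in control 4 against 19.4 to 37.8 in the other goslings. Of the 27 proximal tubule members, 24 were highest in control 3 and 19 lowest in control 2, where control 3 held the highest value of 16.2% and control 2 the lowest value of 17.8% of all rows. All 29 rows of the list summed to 681 FPKM in control 2, a median of 1529 and 3329 in control 3.

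Outside the tubule, the members with an SD of 1 or more were TCF21 of the podocyte list, MYH11 of smooth muscle, LUM and DPT of fibroblasts, JCHAIN and MZB1 of antibody-producing cells, CSF3R and MPO of heterophils and F13A1 of thrombocytes. The lists for neighbouring tissues and heat shock added CHGA, TF, APOB, HPX, ACTA1, NKX2-1 and HSPB1. F13A1, a clotting factor subunit, had 2.27 FPKM in control 3, a median of 4.62 and 31.6 in control 2. SELP (LOC106041540), found for the thrombocyte list through its RefSeq symbol, had an SD of 1.10, with 4.03 FPKM in control 3 and 33.5 in control 1. APOB, the core protein of very low density lipoproteins, which the avian kidney also makes, had 4.10 FPKM in control 2, a median of 26.2 and 43.2 in control 3. The endothelial, T cell, macrophage, early response, interferon, clock, fasting, cell cycle, housekeeping, respiratory chain and urate lists held no member with an SD of 1 or more. The share over all rows was 3.86%, so short lists could hold none without differing from other rows. FOS and G6PC came close at 0.999 and 0.987. MYH11, LUM, MPO, TF, HPX, ACTA1 and HSPB1 kept an SD of 1 or more whichever gosling was left out. Without control 2 the SD was 0.56 for TCF21, 0.83 for F13A1 and 0.78 for APOB. Without control 3 it was 0.82 for JCHAIN and 0.62 for MZB1, without control 1 it was 0.68 for CSF3R and 0.76 for CHGA, and without control 5 it was 0.65 for NKX2-1. DPT had 0.997 without control 1. Other members passed only when a gosling was left out: the fasting list then held up to 3, without control 5, the interferon list held 1 without control 2 or control 6, and the early response list held 1 without control 1, 3, 4 or 5.

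Among rows that were at 1 FPKM or more in all libraries, 207 of 10674, or 1.94%, had an SD of 1 or more. Of the 60 such rows that varied most, 29 were lowest in control 3, against 19.5% of all rows at a mean of 1 FPKM. REG4, a secreted lectin of mucosal epithelium, had 3.59 FPKM in control 3, a median of 155 and 419 in control 5. A sulfotransferase 6B1-like row (LOC106044595) had 2.63 FPKM in control 2 and 342 in control 3. SAA2, an acute phase apolipoprotein, had 43.4 FPKM in control 3 and 440 in control 5. An intestinal mucin-like row (LOC106042592) had 29.0 FPKM in control 3 and 549 in control 5, and keratin 19 (LOC106048013), of ducts and simple epithelia, had 4.06 FPKM in control 6 and 101 in control 5. The last 4 rows were chosen after their values had been seen. Their extremes lay in control 2, control 3, control 5 or control 6, as did those of REG4.

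The 100 most variable rows of all those at a mean of 1 FPKM had another make-up. They comprised 27 rows with a symbol, 25 with a LOC number and 48 without a name, although unnamed rows were 8.40% of all rows at 1 FPKM. Of the 100 rows, 55 were listed at 0 in at least 1 library, against 1.12% of all rows, and 30 had 1 library set apart from the other 5, against 5.79%. The 100 rows were picked for their large SDs. A value of 0 beside higher ones, or 1 value far from the rest, raises the SD, so both shares are raised by construction. The unnamed MSTRG.8 varied most, being listed at 0 in control 6, at 11.5 FPKM in control 1 and at up to 3743 in control 5. MSTRG.6, also unnamed, had 25.7 FPKM in control 3, against 3607 to 17931 in the other goslings, and had an SD of 0.92 without control 3.

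Several of the most variable symbols had more than 1 row, and the variation of a row was not always that of the gene. The 25 most variable rows with a symbol covered 23 symbols, of which 14 had more than 1 row. After the rows of a symbol were summed, 13 symbols kept an SD of 1 or more and 10 did not. MBP, myelin basic protein, illustrates this: one row was listed at 0 in controls 4, 5 and 6 and had 11.5 to 17.1 FPKM in the others, the second had 7.37 to 14.3 FPKM in controls 4, 5 and 6 and at most 0.254 in the others, and the sum had an SD of 0.41. SDHC, a subunit of succinate dehydrogenase, was listed at 0 in control 4 in one row and had an SD of 0.27 after summing. LASP1, an actin-binding adaptor, was listed at 0 in control 5 and had an SD of 2.61 in its most variable row and 0.81 as a sum.

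The symbols that kept a large spread included epithelial enzymes and channels. KCNJ16, an inward rectifier potassium channel of the distal nephron, had 0.128 FPKM in control 6, against 20.8 to 38.3 in the other goslings. TOB1, an antiproliferative factor, had 0.261 and 0.487 FPKM in control 6 and control 5, against 20.9 to 39.7 in the others. Both had a single row in the table. Without control 6 the SD of KCNJ16 was 0.39, and that of TOB1 was 1.95. HGD, an enzyme of tyrosine breakdown, had 0.301 FPKM in control 2, a median of 4.37 and 38.6 in control 3. BGLAP, the bone matrix protein osteocalcin, had 0.704 FPKM in control 2, a median of 9.22 and 33.3 in control 5. MRAP2, an accessory protein of melanocortin receptors, had 2 rows, which summed to 85.02 FPKM in control 6 and to between 0.384 and 10.9 in the other goslings. Of the sum in control 6, 84.2 FPKM came from 1 row, which had no description and was listed at 0 in controls 2, 4 and 5.

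A pattern of presence and absence was counted over all rows, with limits set after the values had been seen: each library at 5 FPKM or more or below 1 FPKM, and both kinds present. It was met by 110 rows, of which 41 were low in a single library and 18 high in a single library. The single low library was control 4 for 11 rows, control 6 for 10, control 1 and control 2 for 7 each, and control 3 and control 5 for 3 each. Of all rows at a mean of 1 FPKM, 26.0% were lowest in control 4, 14.9% in control 6 and 15.7% in control 1. A further 17.8% were lowest in control 2, 19.5% in control 3 and 5.96% in control 5. A description was given for 32.7% of the 110 rows, against 79.6% of all rows at 1 FPKM. The pair of control 1 and control 3 shared 9 rows that no other library had at 5 FPKM. No description was given for any of the 9, and 2 carried a symbol, TMEFF2 and GPM6A, which name membrane proteins known from neural tissue. TMEFF2 had 2 rows in all. They summed to 8.01 FPKM in control 1 and 15.0 in control 3, and to between 1.11 and 2.10 in the other goslings.

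The steadiest rows with a symbol and at least 10 FPKM are described on the deposited FPKM scale, and their order depends on it. The joint row of TOMM20, a mitochondrial import receptor, and RBM34 had an SD of 0.05, with 27.6 to 30.1 FPKM. EMC3, a membrane protein insertase subunit, had 36.5 FPKM in control 4, a median of 38.0 and 40.7 in control 2. WSB2, a ubiquitin ligase adaptor, lay between 31.7 and 35.8 FPKM, with an SD of 0.06 here and 0.13 on the TPM scale. The joint row of TIMM8A and TAF7L and the row of TAF3, a basal transcription factor subunit, were at 26.3 to 29.7 and 14.6 to 16.5 FPKM. These rows were picked for their small SDs, so other symbol rows at that level have larger SDs by construction. Of commonly used reference genes, GAPDH had 948 FPKM in control 2, a median of 1347 and 1807 in control 3. Its SD was 0.33 and that of ACTB was 0.46, against a median of 0.32 over all rows at a mean of 1 FPKM. RPL4 and TBP, at SDs of 0.16 and 0.13, were the steadiest of the 12 housekeeping members.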

How the data were processed

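Renal tissue of 6 healthy goslings was described, 1 library each. Per the labels' protocols, RNA was taken up in Trizol, enriched for poly(A) messenger RNA and sequenced in pairs of reads. Per the submitters' processing notes, the authors used HISAT and StringTie to make the deposited FPKM values. Versions, settings and the genome build are not given in the sources used here. MSTRG is the prefix that StringTie gives to merged loci, so 1 gene may be split over rows and 1 row may join neighbouring genes.

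From the deposited FPKM, means, SDs and the SD of log2(FPKM + 1) were computed over the 6 libraries. Spread was read from rows with a mean of 1 FPKM or more. Low values did not fall into steps of whole reads: at most 0.334% of low rows shared a step in any of the 15 pairs of libraries, so reads could not be recovered and depth stays unknown. Pearson correlations of log2(FPKM + 1) between libraries, over rows, lay between 0.881 and 0.932, and no library was a copy of another. The labels do not name farms, dates or runs. The values measure spread between goslings only, and no test between groups was run.

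Rows were named by rule: the 20 most abundant, the 25 symbols' rows with the largest SD, the 5 steadiest symbol rows at 10 FPKM or more, and in each list the 4 most abundant members and the one with the largest SD, 172 rows in all. Some of these rows are not reported here. Other rows in the text were chosen after their values were seen. A symbol with several rows was represented in the lists by its most abundant row. The members and the 31 lists were chosen with earlier results of these data known. LOC numbers were paired with symbols through the RefSeq table of the Taihu goose assembly, which held 3481 of 5761 distinct LOC numbers. It gave a symbol for 891 of them, and none of its coordinates are used.

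Alternatives were pseudocounts of 0.1 and 0.01, filters of 0.1 and 5 FPKM and none, TPM, upper quartile and quantile scales, the median absolute deviation, and each gosling left out. A limit of 1 FPKM in every library, sums over rows of 1 symbol, and RefSeq or joint names were added after seeing the data. The code was tested on simulated data. Python 3.11.15, pandas 2.3.3, numpy 2.4.6 and matplotlib 3.10.9 were used.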

Additional observations from a re-analysis of the deposited data

Results flagged for a closer look

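Of 166 named rows, 19 had 1 gosling far from the other 5, judged by the gap to its neighbour over the whole range of log2(FPKM + 1), above Dixon's critical value for 6 values. Chance flags about 1 in 20 groups, and 10 of the 19 had been named for their large spread, which raises the number. Over all rows at a mean of 1 FPKM, 720 of 12445, or 5.79%, had such a gap. A flag by itself therefore does not set a row apart from the rest.

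In several rows a single gosling had a value of 0 or far below the others, which is not always that of the gene. KCNJ16 had 0.128 FPKM in control 6, with the next value at 20.8. One row of SI, the brush border enzyme sucrase-isomaltase, was listed at 0 in control 6, with the next at 9.26. Another SI row had 25.8 FPKM in control 6. TCF21 had 1.11 FPKM in control 2, with the next at 33.4. LASP1 was listed at 0 in control 5 and SDHC at 0 in control 4, in rows that are not the only ones of their symbols. One row of SPATS2, a spermatogenesis-associated protein, had 0.516 FPKM in control 1, with the next at 13.8. The 2 rows of SPATS2 summed to 13.8 FPKM in control 1, and the sum had an SD of 0.66. The unnamed MSTRG.6 had 25.7 FPKM in control 3, with the next at 3607.

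Among rows of urate and purine genes, PPAT had 0.584 FPKM in control 5, with the next at 4.50, HPRT1 had 6.93 in control 6, with the next at 17.5, and ATIC had 34.0 in control 1, with the next at 24.2. Apolipoprotein A-I (LOC106039769) had 806 FPKM in control 2, with the next at 2233. WNK1, a kinase that regulates salt transport, had 23.3 FPKM in control 4, with the next at 38.4, and ATP6V0A4, a proton pump subunit of intercalated cells, had 13.02 in the same gosling, with the next at 20.1.

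Single high values were fewer. NKX2-1 had 10.2 FPKM in control 5, with the next at 1.47, and THBS1, a matrix protein of thrombocytes and vessels, had 14.4 there, with the next at 6.44. One row of PCBD1, a pterin-recycling enzyme, had 21.2 FPKM in control 1, with the next at 2.10. Steady rows were picked up for small gaps: TOMM20;RBM34 had 30.1 FPKM in control 1, WSB2 had 31.7 in control 5 and TIMM8A;TAF7L had 26.3 in control 6.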

How the results depend on the processing

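No paired analysis was possible because a single group was described and no test was made. The level results moved little: leaving out each gosling gave 12351 to 12488 rows at 1 FPKM against 12445, a share of 19.6% to 20.6% for the 10 most abundant rows against 19.9%, and 282 to 286 list members at 1 FPKM against 284. On a TPM scale, which multiplies every library, 14184 rows and 300 members passed. The median SD, 0.325 as reported, was 0.292 with a filter of 0.1 FPKM and 0.249 with none, 0.392 and 0.402 with pseudocounts of 0.1 and 0.01, 0.377 on the TPM scale, 0.308 after quantile normalization and 0.280 as a median absolute deviation. Leaving out each gosling gave 0.307 to 0.329. The 480 rows with an SD of 1 or more became 310 at a mean of 5 FPKM or more, 934 and 1007 with the smaller pseudocounts, 802 on the TPM scale and 207 among rows at 1 FPKM in every library, a limit chosen after seeing the data, and were 450 to 514 with a gosling left out. The 20 list members with an SD of 1 or more became 38 and 44 with the smaller pseudocounts and 37 on the TPM scale, and were 16 to 28 with a gosling left out. Adding RefSeq and joint names made them 22. The 30 of 100 most variable rows with 1 library apart became 15 among rows at 1 FPKM in every library. Of the 100 most variable rows, 65 and 54 were shared under the smaller pseudocounts, 76 on the TPM scale, 36 by median absolute deviation, and 81 to 88 with a gosling left out. Smaller pseudocounts and TPM give low values more weight by construction, and filters change which rows enter; the cause of the other shifts was not tested. With depth unknown, a value listed at 0 has no detection limit.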

Other observations

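Nuclear genes of the respiratory chain were abundant: all 11 with a row reached 1 FPKM, with a median SD of 0.28. NDUFA4, a small subunit of the respiratory chain, averaged 848 ± 105 FPKM (SD, n = 6), and ATP5A1, the alpha subunit of ATP synthase, averaged 281 ± 32.0 FPKM. NDUFV1, a subunit of complex I, varied most of the 11, with 38.9 FPKM in control 2, a median of 59.9 and 97.2 in control 3, and ATP5B, the beta subunit of ATP synthase, had an SD of 0.52. Through RefSeq symbols, COX4I1 (LOC106049252), a cytochrome oxidase subunit, averaged 689 ± 84.4 FPKM and CYCS (LOC106030222), cytochrome c, averaged 58.5 ± 4.08 FPKM with an SD of 0.10. The 18 rows described as V-type proton pump subunits, which acidify organelles everywhere and urine in intercalated cells, summed to 605 FPKM in control 4, a median of 827 and 910 in control 1. ATP6V0C, the membrane ring subunit, led them with 224 ± 30.7 FPKM.

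Mucins and complement were further groups found by description or RefSeq symbol after the values had been seen. The 8 mucin rows at 1 FPKM summed to 721 FPKM in control 4, a median of 1400 and 2257 in control 2, and a mucin-4-like row (LOC106044813), a membrane mucin of ducts, gave most of this with a mean of 1159 ± 489 FPKM. MUC5AC, a gel-forming mucin, averaged 6.38 ± 2.81 FPKM. C1QA (LOC106040121), a chain of complement C1q made by macrophages, had 49.5 FPKM in control 3, a median of 143 and 218 in control 1. C1QB (LOC106040156) had 44.3 FPKM in control 6, a median of 100 and 187 in control 2. Both were lower in control 3, control 4 and control 6 than in the other goslings.

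Both rows of SI that were named for their spread held equal values in control 1, control 4 and control 5. Equal values of 1 FPKM or more within a library occurred in the rows of 3 of 1030 names that had more than 1 row.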
